A study of Rattus norvegicus with 12 samples.

Results

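The proteins described here are the structural proteins of the mitochondrial ribosome, taken as every gene whose current rat symbol is Mrpl or Mrps followed by a number. RefSeq lists 118 such genes, of which 40 are pseudogenes without a matching probe and 78 code for proteins. The arrays carried a matching probe for 68 of the 78 (42 Mrpl and 26 Mrps genes), and these 68 are the members among 11211 named genes tested. Mrpl28, Mrpl33, Mrpl39, Mrpl43, Mrps6, Mrps10, Mrps28 and the copies Mrpl41l1, Mrpl42l1 and Mrps36l1 matched no probe and were not analysed here. All 68 members were well above background on all 12 arrays, so none entered through a filter on dim probes. A gene with more than 1 probe is given by its brightest probe.

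RNA came from left ventricles of male Sprague-Dawley rats, hybridised to single-colour (Cy3) Agilent arrays, 3 per group in 4 groups and 1 sample per array. The whole study used a diet with 60% fructose for 8 weeks, so no group was without fructose. The groups differed in dietary salt, with 0.64% NaCl (normal sodium) or less than 0.01% NaCl (low sodium), and in a subcutaneous infusion of angiotensin II (AngII) at 200 ng per kg per min, which ran for the last 4 weeks or was not given. In what follows the fructose diet with its usual salt is called normal sodium and the restricted diet low sodium, each named alone or with AngII, and the study's title asks how salt restriction bears on damage to the heart in metabolic syndrome. The labels give 40 rats per diet, no age, and no rule for which hearts were hybridised.

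The mitochondrial ribosome translates the messengers of mitochondrial DNA, all of which encode core subunits of the respiratory chain and of ATP synthase. Its RNAs are made inside the organelle, whereas its proteins are encoded in the nucleus, translated in the cytosol and imported. The small subunit holds the messenger and the decoding site, and the large subunit holds the site where peptide bonds form and the tunnel through which the new chain leaves. Some of its proteins descend from bacterial ribosomal proteins and others are found only in mitochondria. The heart depends on this machinery because it works almost wholly on oxidative metabolism, and inherited defects of several members cause cardiomyopathy.

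By role, 44 members belong to the large subunit, 23 to the small subunit and 1 was not assigned. Mrps18a and Mrps30 are counted with the large subunit, where their proteins sit despite the symbol. The unassigned member is Mrps21l, a near copy of Mrps21 whose signal could be shared with it. Bacterial homologues made up 38 members and proteins known only from mitochondria 29. Levels are log2 signals above the 75th percentile of their own array, so 0 is the level that the brightest probes exceed. Ranked by mean level and split into 4 sets of 5005, the 20020 probes tested held 54 of the 68 in the brightest set, 12 in the next, 2 in the set below that and 0 in the dimmest. Levels of different genes come from different probes and, apart from this ranking by brightness, are not compared with each other.

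Across the arrays, the 75th percentile of the signal was 858.6 to 1237.4 units against a median local background of 20 to 29.5, and no spot was saturated. Each of the 3 slides, which are also the 3 scans and the 3 replicate numbers, held 1 array of each group, and each group sat at the same place on every slide, so group and place on the slide cannot be told apart. Normal sodium replicate 1 stood apart, with 88 spots marked as non-uniform against 0 to 3 elsewhere and the lowest array weight in limma (0.274). It was the highest or the lowest of the 12 arrays for 33 of the 68 members, which is more than any other array. The 10 cardiomyocyte markers fixed for this work were all tested, and those encoding sarcomere proteins, such as Myh6 (8.23 to 9.05 over the arrays) and Tnnt2 (8.47 to 8.88), were far brighter than the 75th percentile. The labels do not say that the arrays of a group come from separate rats, so the p-values measure the spread between these samples. In whole ventricle, fewer cells of a type and less RNA per cell cannot be told apart.

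No member passed the limma test, adjusted by Benjamini-Hochberg over all 20020 probes, in any of the 7 comparisons. The same held for the whole array, where 0% of the probes had an adjusted p under 0.05 in each comparison and in the F test over the 4 groups. At an unadjusted p under 0.05 the F test took 4 members, against 7.91% of all probes (0 to 9 members with 1 array or 1 slide left out), and the smallest adjusted p of a member was 0.578 (limma F test). On the brightest probes, the largest difference of a member in the 4 comparisons of 2 groups was 1.46-fold. The dimmer probe of Mrpl50 went further, at -1.27 log2 units for low sodium with AngII minus normal sodium with AngII. What follows is therefore a description of small differences on the brightest probes that many members shared.

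The members were lowest in normal sodium with AngII. Their median deviation from each gene's mean over the 12 arrays was -0.129, -0.208 and 0.023 log2 units on replicates 1, 2 and 3 of that group. In low sodium with AngII it was 0.067, 0.063 and 0.065, in low sodium 0.107, 0.083 and -0.053, and in normal sodium 0.024, 0.078 and -0.06. The low values thus came from replicates 1 and 2 of normal sodium with AngII, on which 64 and 65 of the 68 members were below their own mean, while replicate 3 had 28 of 68 and lay inside the range of the other groups. The mean of the array medians was -0.105 ± 0.117 (SD, n = 3) in normal sodium with AngII, 0.014 ± 0.069 in normal sodium, 0.046 ± 0.086 in low sodium and 0.065 ± 0.002 in low sodium with AngII (n = 3 each).

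**Figure D1:**
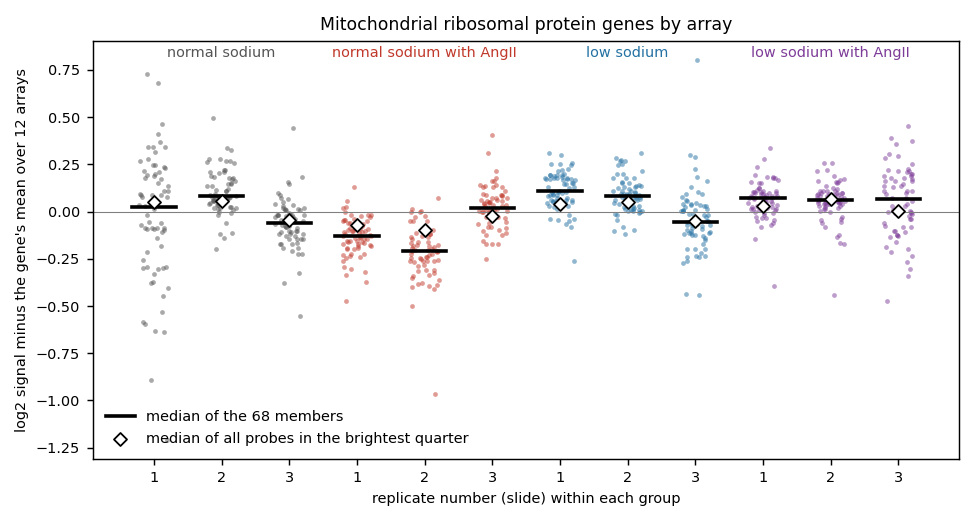
Each point is 1 of the 68 members on 1 array (x axis, replicate numbers within the 4 groups), placed by its log2 signal minus the gene's own mean over the 12 arrays (y axis). Bars are the members' medians and diamonds the medians of the brightest 5005 probes; the bars of normal sodium with AngII lie at -0.129, -0.208 and 0.023, and the points of normal sodium replicate 1 are the most widely spread.

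The same probes' brightness moved with this pattern. The 5005 probes of the brightest set had medians of -0.072, -0.096 and -0.026 on the 3 arrays of normal sodium with AngII, and 0.027, 0.064 and 0.003 in low sodium with AngII. For low sodium with AngII against normal sodium with AngII, the median change of the whole brightest set was 0.1 and that of the 54 members within it was 0.184, whereas the dimmest set was at -0.101. For AngII on normal sodium the values were -0.08 for the brightest set, -0.139 for its 54 members and 0.075 for the dimmest set. After quantile normalization, which gives every array the same distribution, the brightest set was at 0.019 and -0.013 and all 68 members at 0.101 and -0.064. The part that signal level plays in the members' difference was not tested beyond these values.

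Under AngII, low sodium went with higher signals of most mitochondrial ribosomal proteins than normal sodium did. Of the 68 members, 60 were above 0 and 8 below, with a median of 0.179 log2 units and a range of -0.24 to 0.43, and 48% of all probes were above 0 (median -0.014). In 23 members all 3 arrays of low sodium with AngII lay above all 3 of normal sodium with AngII, against 12.2% of all probes, and 0 members lay wholly below. At an unadjusted p under 0.05 limma took 9 members, all of them higher, against 11% of all probes, and 0 members passed after adjustment. The large subunit (41 of 44 higher, median 0.183) and the small subunit (18 of 23 higher, median 0.156) gave like medians, as did bacterial homologues (32 of 38, 0.166) and proteins known only from mitochondria (27 of 29, 0.193).

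Within slides 1, 2 and 3 the members' median for this comparison was 0.199, 0.285 and 0.067, with 63, 64 and 42 of the 68 above 0, against medians of 0.039, 0.006 and -0.078 for all probes. In the authors' deposited values the median was 0.066 with 48 members above 0, where that of all probes was 0.038. The count of 9 at an unadjusted p under 0.05 was 4 when replicate 3 of low sodium with AngII was left out and 16 when replicate 3 of normal sodium with AngII was left out, was 5 without replicate 1 or replicate 2 of normal sodium with AngII and 6 without low sodium with AngII replicate 2, and was 3 without slide 1 and 0 without slide 2. With array weights it was 18.

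The 3 members with the smallest p-values here all belong to the small subunit. Mrps18c, which is related to a bacterial protein of the subunit's platform and has several gene copies in mammals, read 3.1, 2.93 and 3.12 in normal sodium with AngII and 3.40, 3.39 and 3.49 in low sodium with AngII. It read 3.50, 3.23 and 3.31 in normal sodium and 3.47, 3.40 and 3.15 in low sodium. Every array of normal sodium with AngII was thus below every other array of the study for this gene. The difference between the diets under AngII was 0.38 ± 0.12 (limma SE), which is 1.30-fold (limma adjusted p = 0.338).

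Mrps31, a protein of the small subunit's head known only from mitochondria, read 2.65, 2.56 and 2.83 in normal sodium with AngII and 2.91, 3.00 and 3.23 in low sodium with AngII. It read 2.98, 3.06 and 3.09 in normal sodium and 3.12, 2.95 and 2.97 in low sodium. Again the 3 arrays of normal sodium with AngII were the lowest of the 12. The diets differed under AngII by 0.37 ± 0.12 (1.29-fold, limma adjusted p = 0.338). Mrps16, a conserved small-subunit protein whose inherited defects impair the respiratory chain, read 4.90, 4.74 and 5.14 in normal sodium with AngII and 5.24, 5.30 and 5.39 in low sodium with AngII. Its values were 5.05, 5.21 and 4.97 in normal sodium and 5.33, 5.34 and 5.07 in low sodium, so apart from the diet groups under AngII, whose arrays did not overlap, neighbouring groups did. The diets differed under AngII by 0.39 ± 0.13 (1.31-fold, limma adjusted p = 0.356).

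The other members at an unadjusted p under 0.05 were Mrps35, Mrpl42, Mrpl2, Mrps26, Mrps30 and Mrpl13, with differences of 0.26 to 0.35 and limma adjusted p-values of 0.363 to 0.416. Mrpl2 belongs to the core of the large subunit, close to where peptide bonds form. On the other side, the 3 members with the smallest p among those lower in low sodium with AngII all overlapped between the groups. Mrpl32, which is cleaved by a protease of the inner membrane before it is built into the large subunit, read 2.41, 2.33 and 2.52 in normal sodium with AngII and 2.21, 2.49 and 2.12 in low sodium with AngII (-0.15 ± 0.11, limma adjusted p = 0.651). Mrps15 read 0.89, 0.86 and 1.32 against 0.85, 1.07 and 0.44 (-0.24 ± 0.20, adjusted p = 0.682). Mrps2 read -0.49, -0.67 and -0.48 against -0.52, -0.57 and -0.96 (-0.14 ± 0.14, adjusted p = 0.754). For Mrps15 and Mrps2 the low value was replicate 3 of low sodium with AngII, and without slide 3 the differences were 0.09 and 0.03.

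**Figure D2:**
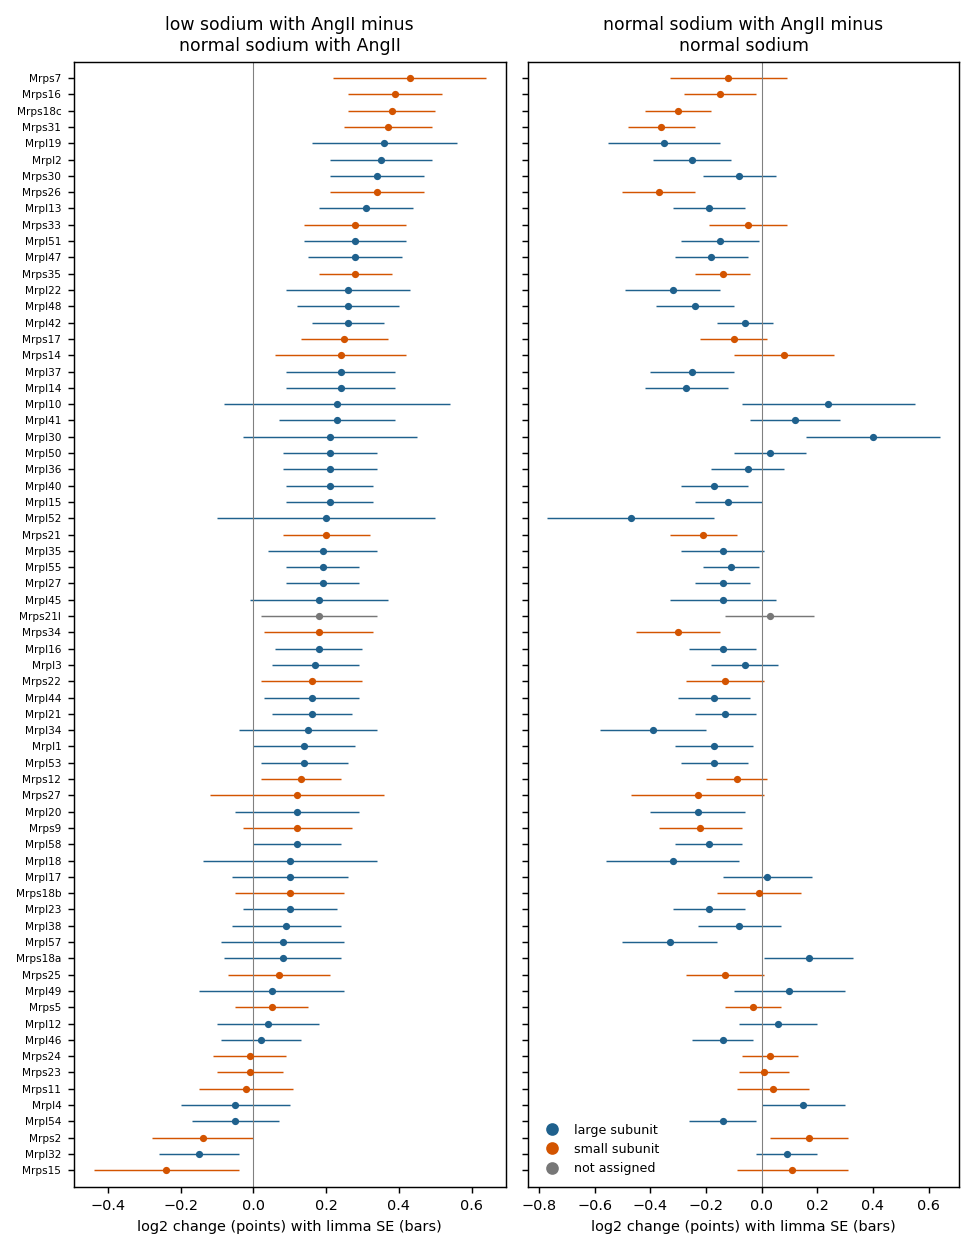
Points are the log2 changes of the 68 members (y axis) for low sodium with AngII minus normal sodium with AngII (left) and for normal sodium with AngII minus normal sodium (right), with bars for the limma SE and colours for the subunits. On the left 60 of 68 points lie above 0 and on the right 51 of 68 lie below 0; both panels use the same 3 arrays of normal sodium with AngII.

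Promoters are shown for the 4 members with the smallest limma p for diet under AngII among those with a sequence. These were Mrps18c, Mrps31, Mrps16 and Mrpl42. Mrps35 had a smaller p than Mrpl42 but no sequence, and was passed over. The sequences came from RefSeq promoters of the GRCr8 build, which held 55 of the 68 members. Each is the 250 bases before the gene's start, from 5′ to 3′ on the gene's strand. Capitals mark matches on either strand to the letters searched for ETS factors such as Gabpa (CCGGAAG), for Nrf1 (GCGCANGCG) or for Yy1 (AANATGGCG), nuclear factors known to act on genes of mitochondrial proteins.
Mrps18c: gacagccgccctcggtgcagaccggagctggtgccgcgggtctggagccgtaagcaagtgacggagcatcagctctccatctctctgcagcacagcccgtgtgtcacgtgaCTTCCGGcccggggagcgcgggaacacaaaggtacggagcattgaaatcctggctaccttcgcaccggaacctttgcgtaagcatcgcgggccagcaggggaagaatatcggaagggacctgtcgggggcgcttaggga
Mrps31: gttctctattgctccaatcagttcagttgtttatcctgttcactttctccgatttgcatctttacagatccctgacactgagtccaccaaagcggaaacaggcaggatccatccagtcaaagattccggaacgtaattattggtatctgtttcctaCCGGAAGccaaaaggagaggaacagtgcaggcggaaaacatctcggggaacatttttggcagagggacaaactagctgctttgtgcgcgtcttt
Mrps16: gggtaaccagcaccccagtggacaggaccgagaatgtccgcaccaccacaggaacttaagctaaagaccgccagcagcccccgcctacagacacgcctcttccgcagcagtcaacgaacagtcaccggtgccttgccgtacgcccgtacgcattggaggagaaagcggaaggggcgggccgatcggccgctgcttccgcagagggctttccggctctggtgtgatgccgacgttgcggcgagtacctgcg
Mrpl42: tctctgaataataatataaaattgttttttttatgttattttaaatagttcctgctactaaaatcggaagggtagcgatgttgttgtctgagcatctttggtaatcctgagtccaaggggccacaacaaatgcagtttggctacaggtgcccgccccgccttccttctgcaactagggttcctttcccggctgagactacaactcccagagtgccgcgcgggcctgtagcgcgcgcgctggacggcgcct
They lie at chr14:9122907-9123156 on the minus strand (Mrps18c), chr16:76324066-76324315 on the minus strand (Mrps31), chr15:3967559-3967808 on the plus strand (Mrps16) and chr7:32028523-32028772 on the minus strand (Mrpl42). The match in Mrps18c begins 139 bases before the start and reads CTTCCGG because it is on the opposite strand, and that in Mrps31 begins 94 bases before the start. Mrps16 and Mrpl42 hold none of these letters in this window. Of the 55 members with a sequence, 12 (21.8%) held the ETS letters against 7.3% of all 33469 promoters of that length, 9 (16.4%) held the Nrf1 letters against 5.1%, and 1 (1.8%) held the Yy1 letters against 1.4%. The E-box CACGTG was found in 4 (7.3%, against 5.6%) and the letters CCAAT in 25 (45.5%, against 34.0%). In all 20 members held the ETS or the Nrf1 letters, and Mrpl57 held both. The members' median GC content was 54.8%, against 51.2% for all promoters. Members count 1 promoter per gene, whereas all promoters means every entry, not limited to the genes tested here.

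AngII on normal sodium went with lower signals of most members. Of the 68, 51 were below 0 and 17 above, with a median of -0.136 and a range of -0.47 to 0.40, and 50.8% of all probes were below 0 (median -0.005). All 3 arrays of normal sodium with AngII lay below all 3 of normal sodium for Mrpl14, Mrpl57, Mrpl58, Mrps18c, Mrps21, Mrps26 and Mrps31, which is 7 of 68 against 6.75% of all probes, and lay above them for Mrps2. At an unadjusted p under 0.05 limma took 3 members, all lower, against 7.38% of all probes, and 0 members passed after adjustment. The large subunit (34 of 44 lower, median -0.141) and the small subunit (17 of 23 lower, median -0.124) gave like medians. This comparison shares the 3 arrays of normal sodium with AngII with the diet comparison above.

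Slide by slide the members' median was -0.15, -0.316 and 0.071, so slide 3 went the other way, with 53 of 68 members above 0. In the authors' deposited values the median was -0.047 with 42 members below 0, where that of all probes was -0.023. The count of 3 was 12 when replicate 3 and 5 when replicate 2 of normal sodium was left out, and 6 when replicate 3 of normal sodium with AngII was, and it was 2 without replicate 1 or 2 of normal sodium with AngII, 19 without slide 3 and 1 without slide 1 or slide 2.

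Small-subunit proteins had the smallest p-values here too. Mrps26, known only from mitochondria, read 4.04, 4.02 and 3.85 in normal sodium and 3.51, 3.65 and 3.64 in normal sodium with AngII. Its low sodium values of 3.55, 3.96 and 3.68 spread over both of these groups, and low sodium with AngII read 3.76, 4.07 and 4.01. AngII on normal sodium thus gave -0.37 ± 0.13 (limma adjusted p = 0.648). Mrps31 differed by -0.36 ± 0.12 and Mrps18c by -0.30 ± 0.12 (limma adjusted p = 0.648 for both), from the array values given above. For Mrps31 this rests on the signal column used, since the authors' deposited values gave 0.04 and median pixel signals with normexp background correction gave -0.03; its diet difference under AngII was 0.29 in the authors' values. Mrps18c was at -0.15 in the authors' values.

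Among the members that were higher with AngII on normal sodium, Mrpl30 had the smallest p. Mrpl30, a conserved large-subunit protein, read 0.88, 2.05 and 1.22 in normal sodium and 1.74, 1.65 and 1.95 in normal sodium with AngII. Replicates 1 and 3 of normal sodium were its lowest arrays and replicate 2 its highest, so the difference of 0.40 ± 0.24 (limma adjusted p = 0.669) stood on a control group with an SD of 0.60. Mrps18a, the large-subunit relative of Mrps18c, read 2.66, 3.3 and 3.18 against 3.15, 3.13 and 3.38 (0.17 ± 0.16, adjusted p = 0.798), and without normal sodium replicate 1 the difference was -0.03. Mrps2, a conserved small-subunit protein, read -0.73, -0.74 and -0.69 against -0.49, -0.67 and -0.48 (0.17 ± 0.14, adjusted p = 0.757).

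**Figure D3:**
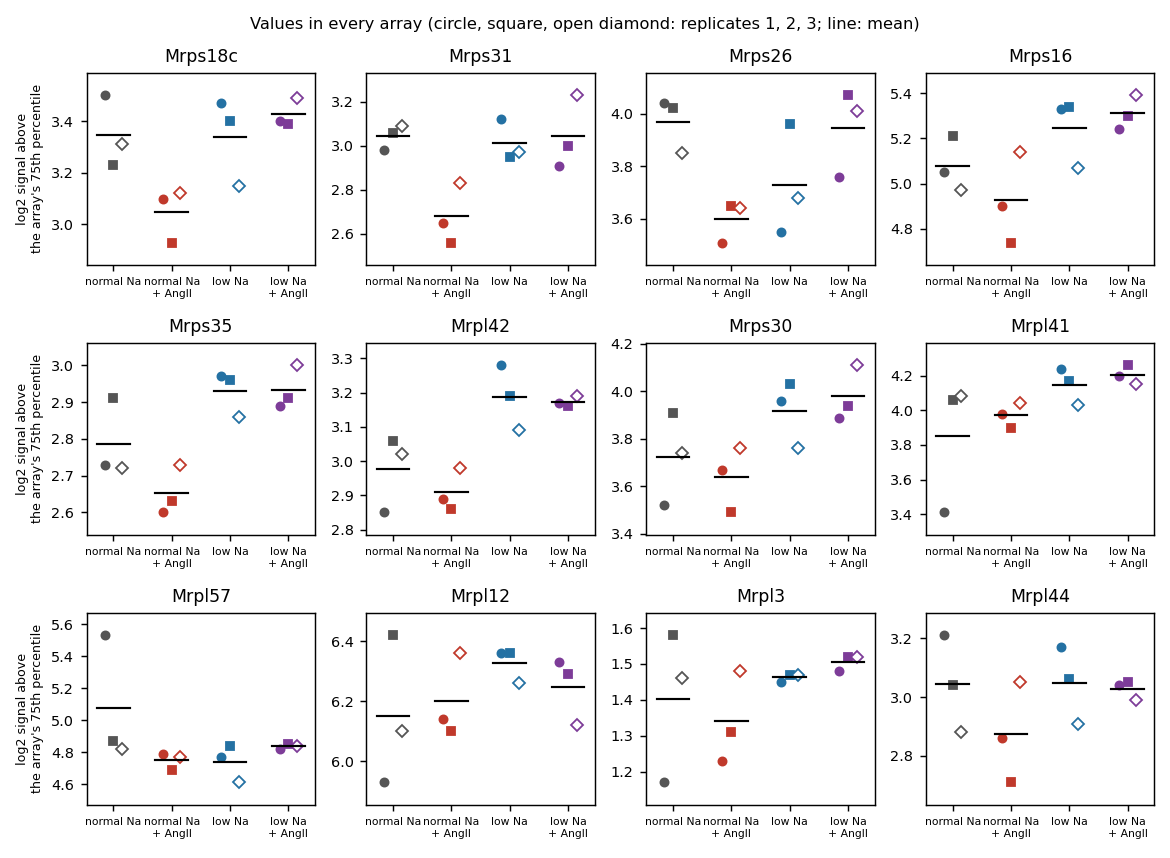
Log2 signal above the array's 75th percentile (y axis, on a scale of its own for each gene) for 12 members in the 4 groups (x axis), with a symbol per replicate and a line at the group mean. Mrps18c and Mrps31 are lowest on the 3 arrays of normal sodium with AngII, and the low circle of Mrpl41 and the high circle of Mrpl57 are both normal sodium replicate 1.

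On low sodium, AngII went with no common direction. Of the 68 members, 38 were above 0 and 30 below (median 0.022, range -0.31 to 0.21), against 51.1% of all probes above 0. Groups did not overlap in 2 members, Mrpl3 and Mrpl40, both higher with AngII, against 3.53% of all probes. At an unadjusted p under 0.05 limma took 0 members, against 1.8% of all probes, and 0 passed after adjustment. The sign of the median depended on the scaling, with 0.004 after quantile normalization and -0.012 in the authors' values, and within slides it was -0.044, -0.013 and 0.122. Without low sodium replicate 3, 17 of the 68 members were above 0.

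Mrps26 had the smallest p among higher members, at 0.21 ± 0.13 (limma adjusted p = 1), from the values given above. Mrps33, a small-subunit protein known only from mitochondria, read 2.93, 2.70 and 2.69 in low sodium and 2.93, 2.99 and 3.03 in low sodium with AngII (0.21 ± 0.14). In normal sodium it read 2.5, 2.87 and 2.90, and with AngII 2.80, 2.49 and 2.82. Mrpl40, part of the large subunit's central protuberance, read 4.42, 4.48 and 4.24 in low sodium and 4.53, 4.51 and 4.57 with AngII, without overlap (0.16 ± 0.12, limma adjusted p = 1). Its normal sodium values were 4.61, 4.57 and 4.32, and 4.28, 4.21 and 4.5 with AngII.

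The lower members with the smallest p were Mrpl46, Mrpl4 and Mrpl32. Mrpl46, another protein of the central protuberance, read 2.32, 2.46 and 2.14 in low sodium and 2.20, 2.07 and 2.09 with AngII (-0.19 ± 0.11, limma adjusted p = 1). Its values without salt restriction were 2.38, 2.24 and 2.11, and 2.07, 2.10 and 2.13 with AngII, so both infused groups were narrow and at the lower end. Mrpl4, which lines the exit tunnel, read 3.09, 3.05 and 3.27 in low sodium and 3.08, 3.07 and 2.68 with AngII (-0.19 ± 0.15). Its difference came from slide 3, without which it was 0.01. Mrpl4 read 2.58, 3.05 and 2.92 in normal sodium and 2.93, 2.98 and 3.09 with AngII. Mrpl32 read 2.41, 2.44 and 2.36 in low sodium against 2.21, 2.49 and 2.12 with AngII (-0.13 ± 0.11), and 2.27, 2.38 and 2.34 in normal sodium.

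Whether the effect of AngII differed between the diets was tested as an interaction, the change with AngII on the low diet less the change on the normal diet. Its median over the members was 0.142, with 51 above 0 and 17 below, against 50.6% of all probes above 0 (median 0.004). The brightest 5005 probes were at 0.096. At an unadjusted p under 0.05 limma took 3 members, Mrps26 (0.58 ± 0.19), Mrps31 (0.39 ± 0.17) and Mrps18c (0.38 ± 0.17), against 5.08% of all probes. All 3 had an adjusted p of 0.847, and 0 members passed. The opposite sign was led by Mrps2 (-0.32 ± 0.20), Mrpl4 (-0.34 ± 0.22) and Mrpl32 (-0.22 ± 0.16), with adjusted p-values of 0.848 to 0.859. The median was 0.092, 0.286 and 0.028 within the slides, where that of all probes was 0.092, 0.018 and -0.094, so on slide 1 the members did not stand above the array. In the authors' values it was 0.044, against 0.032 for all probes, with 39 members above 0 and Mrps31 at -0.06. The count of 3 was 6 when replicate 3 of normal sodium and 5 when replicate 3 of normal sodium with AngII was left out, and 1 without low sodium replicate 2 or 3, replicate 2 or 3 of low sodium with AngII, or replicate 1 or 2 of normal sodium with AngII. The interaction too uses the arrays of normal sodium with AngII.

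Without AngII, the diets differed little in the members as a group. Low sodium minus normal sodium had a median of 0.05 (44 above 0 and 24 below, range -0.34 to 0.55), against 46.8% of all probes above 0. Groups did not overlap in 4 members, Mrpl42, Mrpl50, Mrps18a and Mrps2, all higher in low sodium, against 4.93% of all probes. At an unadjusted p under 0.05 limma took 2 members, Mrpl30 and Mrps18a, against 7.16% of all probes, and 0 members passed after adjustment. The count of 2 was 8 when replicate 2, 5 when replicate 3 and 0 when replicate 1 of normal sodium was left out. It was 0 or 1 when any other array was left out, and 0, 3 and 0 without slides 1, 2 and 3. Within slides the median was 0.103, -0.012 and 0.016. The split of 44 to 24 depended on the scaling, with 54 members above 0 after centring on the median and 36 after normexp correction.

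Mrpl30 read 2.02, 1.92 and 1.85 in low sodium, close together, against the wide normal sodium values given above (0.55 ± 0.24, limma adjusted p = 0.68), and 1.95, 2.03 and 1.99 in low sodium with AngII. Mrps18a read 3.43, 3.34 and 3.47 in low sodium, above all normal sodium arrays (0.36 ± 0.16, adjusted p = 0.689), and 3.43, 3.3 and 3.17 in low sodium with AngII. Mrps2 read -0.66, -0.62 and -0.32 in low sodium, just above the normal sodium arrays. Mrpl57, a small large-subunit protein known only from mitochondria, read 5.53, 4.87 and 4.82 in normal sodium and 4.77, 4.84 and 4.61 in low sodium (-0.34 ± 0.17, limma adjusted p = 0.707). Mrpl34 read 5.64, 4.99 and 4.81 against 4.93, 4.98 and 4.68 (-0.28 ± 0.19, adjusted p = 0.772). In both genes replicate 1 was the highest of all 12 arrays. In the infused groups Mrpl57 read 4.79, 4.69 and 4.77 on normal and 4.82, 4.85 and 4.84 on low sodium, and Mrpl34 4.76, 4.65 and 4.85 on normal and 4.88, 4.97 and 4.83 on low sodium. Mrps26 completed the lower members (-0.24 ± 0.13, adjusted p = 0.73).

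Averaged over both infusion states, low sodium went with higher signals of 59 of the 68 members (median 0.11, range -0.13 to 0.38), against 48.4% of all probes above 0. Limma took 7 members at an unadjusted p under 0.05, all higher, against 12.6% of all probes, and 0 after adjustment; the count was 0 without slide 1, 1 without slide 2 and 9 without slide 3. It was 15 when replicate 2 of normal sodium was left out, 12 when replicate 3 of low sodium or of normal sodium with AngII was, and 4 without low sodium replicate 1 or 2, replicate 2 of low sodium with AngII or replicate 1 of normal sodium with AngII. With array weights it was 17. Within slides the median was 0.154, 0.125 and 0.026. In the authors' values it was 0.046 with 44 members above 0, where that of all probes was 0.031. The brightest 5005 probes were at 0.046 in the main fit, against the members' 0.11. Mrpl42, a large-subunit protein known only from mitochondria, had the smallest p. It read 2.85, 3.06 and 3.02 in normal sodium, 2.89, 2.86 and 2.98 in normal sodium with AngII, 3.28, 3.19 and 3.09 in low sodium and 3.17, 3.16 and 3.19 in low sodium with AngII. All 6 low sodium arrays were therefore above all 6 normal sodium arrays (0.24 ± 0.07, limma adjusted p = 0.235).

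Mrps35, a small-subunit protein known only from mitochondria, read 2.73, 2.91 and 2.72 in normal sodium and 2.60, 2.63 and 2.73 with AngII. On low sodium it read 2.97, 2.96 and 2.86, and 2.89, 2.91 and 3.00 with AngII. The diets overlapped through replicate 2 of normal sodium (0.21 ± 0.07, limma adjusted p = 0.256). Mrps16 followed at 0.28 ± 0.09 (adjusted p = 0.264). Of the members lower on low sodium, Mrpl54 (-0.09 ± 0.09), Mrpl57 (-0.13 ± 0.12) and Mrps15 (-0.11 ± 0.14) had adjusted p-values of 0.705 to 0.788 in limma. Mrpl54, a large-subunit protein, read 5.34, 5.05 and 4.94 in normal sodium, 4.95, 5.0 and 4.97 with AngII, 4.95, 5.01 and 4.97 in low sodium and 5.03, 4.97 and 4.78 with both. Apart from normal sodium replicate 1 these values lay between 4.78 and 5.05. Mrps15 read 0.58, 1.09 and 1.07 in normal sodium and 0.94, 0.94 and 0.90 in low sodium.

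The AngII effect averaged over both diets was small, with a median of -0.057, 54 members below 0 and 14 above, against 51.5% of all probes below 0. Limma took 0 members at an unadjusted p under 0.05 (against 2.89% of all probes) and 0 after adjustment, while without slide 3 it took 10, with 56 members below 0. Without slide 2, 32 members were below 0. Within slides it was -0.109, -0.165 and 0.079. The smallest p-values among the lower members were those of Mrpl46 (-0.16 ± 0.08), Mrps31 (-0.17 ± 0.08) and Mrpl52 (-0.39 ± 0.21), and among the higher members those of Mrpl30 (0.23 ± 0.17), Mrps33 (0.08 ± 0.10) and Mrpl41 (0.09 ± 0.12), all with a limma adjusted p of 1. Mrpl41, a large-subunit protein known only from mitochondria, read 3.41, 4.06 and 4.08 in normal sodium and 3.98, 3.90 and 4.04 with AngII. It read 4.24, 4.17 and 4.03 in low sodium and 4.20, 4.26 and 4.15 with both. Its sign turned on normal sodium replicate 1, without which the average AngII effect was -0.02.

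**Figure D4:**
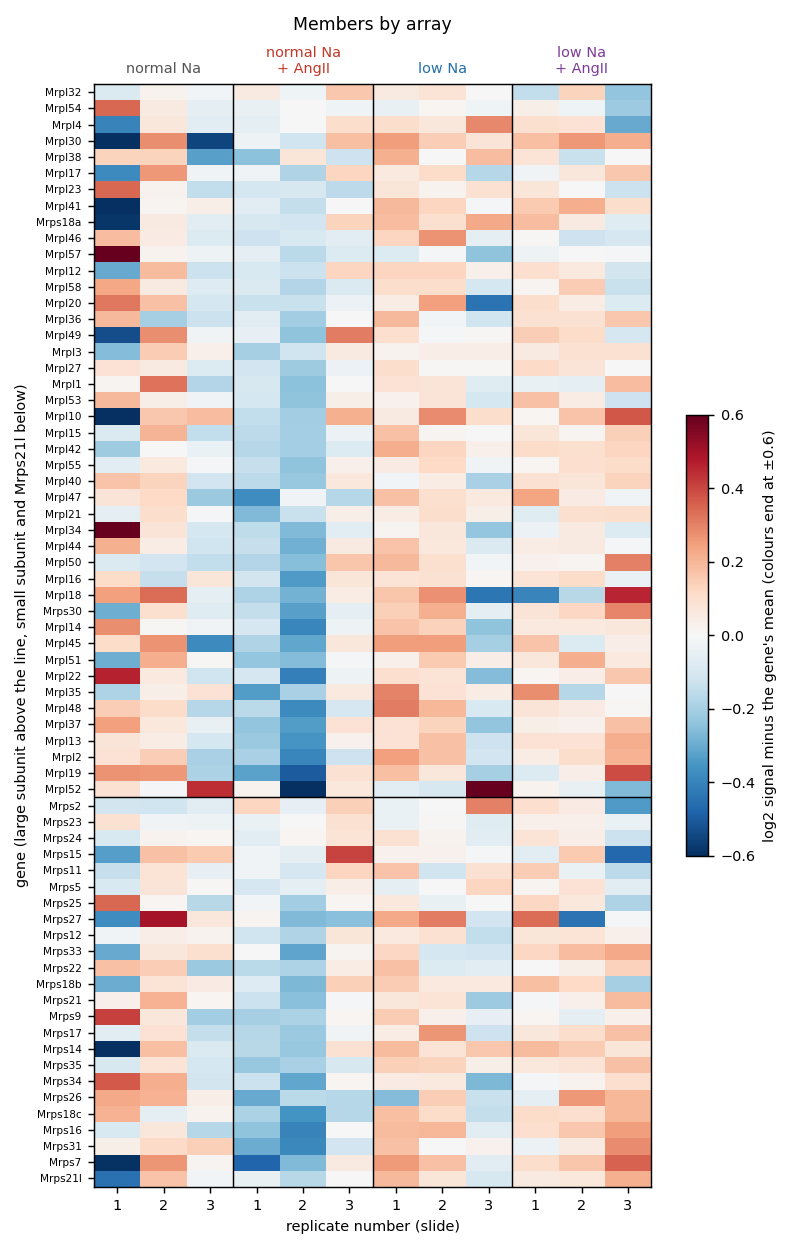
Log2 signal minus the gene's mean over the 12 arrays for each of the 68 members (y axis, large subunit above the line, small subunit and Mrps21l below it) on each array (x axis), in blue below and red above the mean, with colours ending at 0.6 either way. Blue fills most of replicates 1 and 2 of normal sodium with AngII, where 64 and 65 of 68 members are below their mean, and normal sodium replicate 1 holds the strongest colours of both kinds.

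Inherited defects of Mrpl3, Mrpl44, Mrps14 and Mrps22 cause cardiomyopathy in patients, and Mrpl12 binds the mitochondrial RNA polymerase besides forming part of the ribosome's stalk. Mrpl3 read 1.17, 1.58 and 1.46 in normal sodium, 1.23, 1.31 and 1.48 with AngII, 1.45, 1.47 and 1.47 in low sodium and 1.48, 1.52 and 1.52 with both, so the low sodium groups were narrower (SD 0.01 and 0.02, against 0.21 and 0.13). Mrpl44 read 3.21, 3.04 and 2.88 in normal sodium, 2.86, 2.71 and 3.05 with AngII, 3.17, 3.06 and 2.91 in low sodium and 3.04, 3.05 and 2.99 with both. Its lowest array was again normal sodium with AngII replicate 2.

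Mrps14 read -0.14, 0.68 and 0.41 in normal sodium, 0.33, 0.27 and 0.59 with AngII, 0.69, 0.58 and 0.66 in low sodium and 0.69, 0.65 and 0.57 with both. Mrps22, a small-subunit protein known only from mitochondria, read 0.55, 0.52 and 0.15 in normal sodium, 0.21, 0.19 and 0.42 with AngII, 0.55, 0.29 and 0.31 in low sodium and 0.37, 0.41 and 0.51 with both. In both genes every group overlapped another group. Mrpl12, read 5.93, 6.42 and 6.10 in normal sodium, 6.14, 6.10 and 6.36 with AngII, 6.36, 6.36 and 6.26 in low sodium and 6.33, 6.29 and 6.12 with both. The limma F test over the 4 groups gave these genes adjusted p-values of 0.776 (Mrps14) to 0.943 (Mrps22).

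The members were steadier from array to array than the median probe. Their SD within groups was 0.154 at the median (0.054 to 0.428), against 0.22 over all probes tested. Most members were among the brightest probes, whereas all probes tested include the dim ones. The members' SD was not compared with that of probes of like brightness. The part that signal level plays in this difference was not tested. Mrps23, a small-subunit protein known only from mitochondria, was the steadiest, with 2.29, 2.18 and 2.17 in normal sodium, 2.16, 2.20 and 2.29 with AngII, 2.16, 2.21 and 2.13 in low sodium and 2.23, 2.23 and 2.16 with both. Its range over all 12 arrays was 0.16. Mrps35 came next, followed by Mrpl27, a protein of the peptidyl transferase centre, which read 4.13, 4.10 and 3.96 in normal sodium, 3.93, 3.83 and 4.01 with AngII, 4.15, 4.05 and 4.05 in low sodium and 4.16, 4.12 and 4.04 with both. All 3 of its low sodium with AngII arrays lay above the 3 of normal sodium with AngII.

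The widest spreads belonged to Mrpl10, Mrpl52 and Mrps27, each through a few arrays. Mrpl10, which anchors the ribosome's stalk, read 2.81, 4.18 and 4.20 in normal sodium, 3.87, 3.81 and 4.23 with AngII, 4.07, 4.30 and 4.12 in low sodium and 4.03, 4.19 and 4.39 with both. Mrpl52, a large-subunit protein known only from mitochondria, read -0.78, -0.88 and -0.43 in normal sodium, -0.85, -1.84 and -0.81 with AngII, -0.94, -0.97 and -0.07 in low sodium and -0.85, -0.92 and -1.14 with both. Its extremes were replicate 2 of normal sodium with AngII and replicate 3 of low sodium. Mrps27, a pentatricopeptide repeat protein, read -2.43, -1.56 and -1.99 in normal sodium, -2.04, -2.32 and -2.31 with AngII, -1.83, -1.75 and -2.17 in low sodium and -1.72, -2.5 and -2.07 with both.

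Members also varied together within groups. After each group's mean was removed, the median correlation over the 2278 pairs of members was 0.294 across the 12 arrays, and 33.9% of the pairs were above 0.5. Over pairs of all tested genes the median was 0.027 and the share 13.4%. This is a description only, since all pairs come from the same arrays and share their scaling and their brightness. By its median correlation with the other members, Mrps16 was highest (0.53), followed by Mrpl13 and Mrps12 (0.51 each), while Mrps2 (-0.15), Mrpl23 (-0.1), Mrpl52 (-0.08), Mrpl54 (-0.07) and Mrpl4 (-0.03) did not follow the rest.

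In 10 members a second probe was tested. For low sodium with AngII against normal sodium with AngII, 8 of the 10 pairs of probes had the same sign, and for AngII on normal sodium 7 of 10. Mrps16 gave 0.39 and 0.23 on its 2 probes in the first comparison, but -0.15 and 0.1 in the second. The pairs of opposite sign in the first were Mrpl10 (0.23 and -0.12) and Mrpl50 (0.21 and -1.27), where the second value is that of the dimmer probe. After each group's mean was removed, the correlation between a gene's probes ran from -0.26 (Mrpl10) to 0.94 (Mrpl41). It was also below 0 for Mrps21 (-0.11) and Mrpl35 (-0.09).

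Genes that work with the mitochondrial ribosome were taken from lists that hold no member. None of their genes passed the limma test in any comparison. Of 5 proteins of the mitochondrial ribosome with other names, 4 were higher in low sodium with AngII than in normal sodium with AngII (median 0.146), and all 5 were lower with AngII on normal sodium (median -0.192). Chchd1 was the furthest up under low sodium (0.5 ± 0.17, limma adjusted p = 0.352). Dap3, a GTP-binding protein of the small subunit, had the smallest p for AngII on normal sodium (-0.28 ± 0.19, limma adjusted p = 0.702). Dap3 read 1.9, 1.12 and 1.2 in normal sodium and 1.08, 0.97 and 1.33 with AngII. Its difference thus rested on normal sodium replicate 1. Of 12 translation factors tested of 13 listed, 9 were higher under low sodium with AngII (median 0.144) but 6 of 12 were lower with AngII on normal sodium (median -0.019). The initiation factor Mtif2 gave 0.28 ± 0.11 in the first (limma adjusted p = 0.419) and -0.13 ± 0.11 in the second.

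Of 22 assembly factors and ribosomal RNA modifying enzymes, 14 were higher under low sodium with AngII (median 0.062), led by Fastkd2, an RNA-binding protein needed for the large subunit (0.4 ± 0.12, limma adjusted p = 0.314), and 15 were lower with AngII on normal sodium (median -0.082), where Mrm1, which methylates the large ribosomal RNA, gave -0.46 ± 0.17 (adjusted p = 0.648). Of 16 mitochondrial aminoacyl-tRNA synthetases, 11 were higher in the first (median 0.139) and 8 lower in the second (median -0.008). Of 16 genes of mitochondrial transcription and DNA maintenance the counts were 12 (median 0.093) and 9 (median -0.046), and Ssbp1, which binds single-stranded mitochondrial DNA, read 0.31 ± 0.12 and -0.29 ± 0.12. The 10 nuclear regulators had medians of 0.017 and 0.006, with 5 above and 5 below 0 in the first. Esrra gave 0.28 ± 0.11 and -0.22 ± 0.11 and Gabpa 0.25 ± 0.13 and -0.22 ± 0.13, while in the first Yy1 gave -0.23 ± 0.1 and Gabpb1 -0.16 ± 0.11. The products of mitochondrial translation itself, 13 messengers of mitochondrial DNA, were listed but none was among the probes tested.

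Other mitochondrial genes and cytosolic ribosomes had like directions. Of all probes, 48% were above 0 for low sodium under AngII, and the brightest 5005 had a median of 0.1. For AngII on normal sodium 50.8% were below 0, and the brightest 5005 had a median of -0.08. The medians of the respiratory chain subunits were close to these. The part that signal level plays in these lists was not tested. Of 50 nuclear-encoded respiratory chain subunits, 44 were higher under low sodium with AngII (median 0.108) and 38 lower with AngII on normal sodium (median -0.08), and of 15 genes used as measures of mitochondrial content, such as import proteins and matrix enzymes, 10 and 12 (medians 0.124 and -0.13). Of 76 cytosolic ribosomal proteins, 74 were higher in the first (median 0.172) and 65 lower in the second (median -0.182), sizes like those of the members. The array values behind the second differed. On replicates 1, 2 and 3 of normal sodium the cytosolic list's median deviation was 0.048, 0.255 and -0.133, and the members' was 0.024, 0.078 and -0.06. Without AngII, 53 of the 76 were lower on low sodium (median -0.063) and 44 of the 68 members higher; that difference between the lists was not tested.

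**Figure D5:**
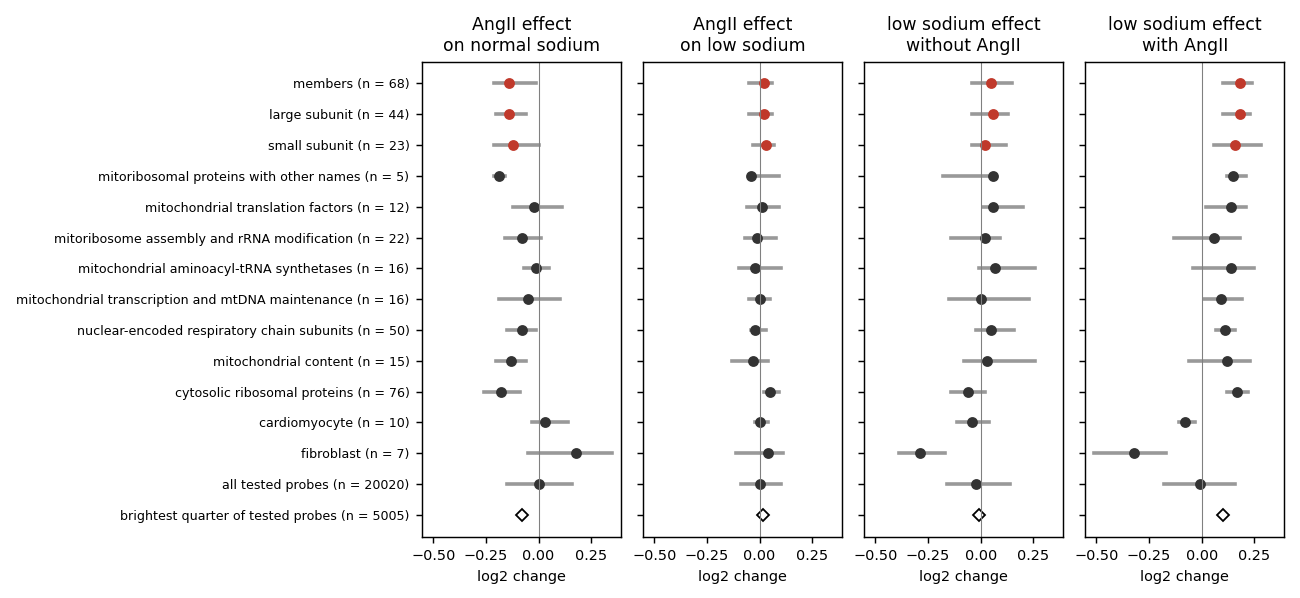
Medians (points) and middle 50% (bars) of the log2 changes of the members, their subunits and the other lists (y axis, with the number of genes or probes) in the 4 pairwise comparisons (x axes); the diamond is the median of the brightest 5005 probes. Members and cytosolic ribosomal proteins lie at -0.136 and -0.182 for AngII on normal sodium and at 0.179 and 0.172 for low sodium with AngII.

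Fibroblast, macrophage and endothelial markers had the opposite direction to the members in the diet comparison under AngII. All 7 fibroblast markers were lower in low sodium with AngII than in normal sodium with AngII (median -0.325), as were all 6 macrophage markers (median -0.558) and all 6 endothelial markers (median -0.21), while 9 of 10 cardiomyocyte markers were lower by less (median -0.078). All 3 red cell markers (median -0.336) and 3 of 4 smooth muscle markers (-0.056) were lower too, and all 3 atrial (1.018) and all 3 skeletal muscle markers (0.045) were higher. In the diet comparison without AngII, 6 of 7 fibroblast (median -0.293), all 6 macrophage (-0.337) and all 6 endothelial markers (-0.262) were also lower on low sodium. So were 6 of 10 cardiomyocyte markers (-0.044). All 4 smooth muscle (0.586), 2 of 3 red cell (0.41), 2 of 3 atrial (0.837) and all 3 skeletal muscle markers (0.179) were higher there. The members' median in that comparison was 0.05. The fibroblast markers' median deviation ranged from 0.013 to 0.446 over the arrays of normal sodium with AngII and from -0.26 to 0.056 over those of low sodium with AngII, without AngII from 0.015 to 0.247 (normal) and from -0.144 to -0.09 (low). For macrophage markers the ranges were 0.184 to 0.391, -0.244 to -0.172, -0.043 to 0.257 and -0.783 to -0.007 in the same order. Col3a1, a fibrillar collagen, gave -0.84 ± 0.12 (limma adjusted p = 0.107) and Adgre1, a macrophage receptor, -0.63 ± 0.15 (adjusted p = 0.303).

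For AngII on normal sodium, 5 of 7 fibroblast markers (median 0.177), 5 of 6 macrophage markers (0.124) and all 4 smooth muscle markers (0.594) were higher. All 3 red cell markers (0.927) were higher too, and 5 of 6 endothelial markers were lower (-0.009). Of the 10 cardiomyocyte markers, 6 were higher and 4 lower (median 0.029). Markers of atrial muscle varied widely by array, with median deviations of 1.348, -0.525 and 1.694 in low sodium, 0.157, 1.84 and -0.018 in low sodium with AngII, -0.026, 0.49 and -1.354 in normal sodium and -0.147, -2.268 and 0.043 in normal sodium with AngII. Averaged over both infusion states all 3 were higher on low sodium (median 0.928). By this median the lowest of the 12 arrays was normal sodium with AngII replicate 2. On that array 30 of the 68 members had their lowest value and 0 their highest. The 3 atrial genes did not share this. Myl7 was lowest there (-3.23), but Sln was lower on replicate 1 (-2.45, against -2.1). Myl4 varied little over the arrays (7.43 to 7.75) and read 7.67 there. The 3 skeletal muscle markers tested, of 4 listed, were lower with AngII on normal sodium (median -0.178). The part that cell makeup plays in the members' values was not tested.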

How the data were processed

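Files deposited by the authors are the scanner output of 12 single-colour Agilent arrays and a matrix of their own values. The scanner values are signal intensities, background-subtracted and detrended within each array, per the file headers (Agilent Feature Extraction 10.7.3.1). The submitters' processing notes list limma, R 3.3.04 and Feature Extraction 11.0.1.1. The authors' deposited matrix holds log2 values whose normalization is not given in the sources used here.

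Control spots (1377) and outlier-marked spots (296 to 421 per array) were left out, spots of a probe were averaged, and log2 signals were set against each array's 75th percentile over 30367 probes. A probe was tested if at least 0.5 of its spots were well above background on every array of some group, which gave 20020 probes, of which 13280 had a symbol. Probes were named by matching their accession to RefSeq (18758 of 30367). Of the tested probes, 60 lacked a value on at least 1 array, none of them a member's. Limma 3.58.1 (R 4.3.3, data.table version 1.17.8) fitted 1 mean per group over 12 arrays, with eBayes and Benjamini-Hochberg adjustment over all tested probes at 0.05. The fit was tested on simulated data with independent noise and with shifts larger than any member's change on its brightest probe. That test does not show how often changes of the members' size would be called.

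The members and the 18 gene lists were chosen with earlier results of these data known. Array values are given for the 3 members with the smallest p in each direction of each comparison, the 3 with the largest and the 3 with the smallest spread, and Mrpl12, Mrpl3, Mrpl44, Mrps14 and Mrps22. A gene of another list is named only if it is among the 2 with the smallest p in a direction of a comparison or checks the tissue, and not every such gene is named. Replicate numbers are the slides: of 18 pairs of arrays with the same number, 17 had residual correlations over 0.1 (0.047 to 0.432), so the rule for pairing was not met by all and the block is an alternative. The number of arrays limits the precision.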

Additional observations from a re-analysis of the deposited data

Results flagged for a closer look

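Among the members given array by array above, there were 5 in which every infused array on 1 diet lay to the same side of the mean of its uninfused group and every infused array on the other diet lay to the opposite side. The change with AngII on the low diet less the change on the normal diet was 0.58 log2 units for Mrps26, 0.38 for Mrps18c, 0.33 for Mrpl40, -0.34 for Mrpl4 and 0.42 for Mrpl57. In the limma test of this difference none passed, with adjusted p-values from 0.847 upward. Many of the members given array by array were picked by their p-values in these data, in this test among others. The pattern was not counted over all members or over all probes. Whether 5 is more than other genes would give was therefore not tested. For Mrpl57 the normal sodium mean rests on replicate 1 (5.53, against 4.87 and 4.82), and for Mrpl4 the difference on low sodium was 0.01 without slide 3. For Mrpl40, replicate 3 of normal sodium with AngII read 4.5, and the normal sodium mean was also 4.5 as rounded, so that array lay barely below it. Groups of 3 arrays were too small for a search for single arrays far from their group.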

How the results depend on the processing

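No member passed the adjusted threshold under any of 27 other settings, while several medians and counts over the members moved. The median for AngII on normal sodium (-0.136) was -0.047 in the authors' deposited values, -0.048 without slide 2 and -0.22 without slide 3. For low sodium under AngII (0.179) it was 0.066 in the authors' values. The median for AngII on low sodium (0.022) was -0.042 without slide 3, -0.025 without low sodium replicate 3, -0.012 in the authors' values and -0.004 with array weights. The mean AngII effect (-0.057) was -0.139 without slide 3 and 0.003 without slide 2, where 32 members were below 0. The interaction (0.142) was 0.056 after quantile normalization, 0.044 in the authors' values and 0.056 without slide 2. Leaving out 1 array in turn gave 17 to 49 members above 0 for AngII on low sodium, -0.193 to -0.077 for the median of AngII on normal sodium and 0.125 to 0.25 for low sodium under AngII. Of single members, Mrps31 turned to 0.04 (AngII on normal sodium), 0.01 (mean AngII effect) and -0.06 (interaction) in the authors' values. Without slide 3, Mrpl4 was at 0.01 (AngII on low sodium), Mrps15 at 0.09 (low sodium under AngII) and 0.1 (mean low sodium effect), and Mrps2 at 0.03 (low sodium under AngII). Leaving out 1 array gave -0.03 to 0.3 for Mrps18a (AngII on normal sodium), -0.22 to 0 for Mrps2 (low sodium under AngII) and -0.02 to 0.15 for Mrpl41 (mean AngII effect). The cause of these changes was not tested. With the replicate number as a replicate block, the medians stayed at -0.136 and 0.179, with 3 and 8 members at an unadjusted p under 0.05 and no call changed in any paired fit. The added settings, the 75th percentile over spots and leaving out Mrps21l, were chosen after seeing the data. Choosing members by a gene name column and leaving out Mrps36 were not run, since the files used here hold no such column and no tested member has that symbol. All members were well above background.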
